A study of Homo sapiens with 6 samples.

Results

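The genes described here build and hold the contacts between epithelial cells: CDH1, EPCAM, CLDN1, CLDN3, CLDN4, CLDN7, OCLN, TJP1, JUP and DSP. They were chosen by name, and all 18 array probes that carry one of the 10 symbols in the array annotation were taken, out of 47319 probes in the table. RNA came from HCT116, an established human colorectal carcinoma line, in a derivative described as p53-null. One group of cells received the small molecule TIC10 (ONC201) at 10 µM in fresh complete medium, and the other received 0.05% DMSO, its solvent. Cells of both groups lacked p53 and were harvested after 48 h, and each group had 3 arrays. Neither the solvent in the TIC10 group nor the number of clones behind the line is stated in the labels. The comparison asks which transcripts of the epithelial contacts differed after treatment.

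Epithelial cells are joined by several kinds of contact. In the adherens junction, cadherins bind across the gap between cells and are tied to actin by catenins, and in the desmosome related cadherins are tied to keratin filaments by plakoglobin (JUP) and desmoplakin (DSP). Tight junctions seal the space between cells with strands of claudins and occludin (OCLN), anchored by scaffold proteins such as ZO-1 (TJP1). EPCAM, a surface adhesion protein of epithelia, binds claudin-7 and is widely used to mark carcinoma cells. Loss of E-cadherin (CDH1) is the classic sign of a shift from an epithelial to a mesenchymal state, and repressors of the SNAI, ZEB and TWIST families can drive it.

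The arrays differed in brightness. The median intensity over all probes lay between 42.6 and 43.6 with TIC10 and between 46 and 49.6 with DMSO, and DMSO replicate 3 was the brightest. Levels are therefore given both as deposited intensities and after quantile normalization, on a log2 scale. Since no label says that replicates were grown as separate cultures, the p-values reflect array-to-array spread, part of which may be technical. In total RNA, fewer cells with a transcript and less of it per cell cannot be told apart. Of 10 markers of colon epithelium 6 were bright enough to test, KRT19 and KRT8 among them, while CDX1, VIL1, CEACAM5 and LGALS4 were not. The summed intensity of all 10 was 7095 to 12691 with DMSO and 7530 to 9470 with TIC10. KRT8 read 1256, 1498 and 4150 on DMSO replicates 1 to 3 and was not called (-0.22, limma adjusted p = 0.631). KRT19 was higher (0.39, adjusted p = 0.0286). KRT18, CDX2 and KRT20 were not called, at 0.77, -0.30 and -0.23. Their groups did not overlap, which held for 41.6% of all genes tested. KRT18 read 7.30, 7.46 and 6.03 on DMSO replicates 1 to 3 after normalization. In the authors' processed values KRT18 and KRT19 were both at 0.24 and not called (limma adjusted p = 0.231 and 0.251). The sum of 7 fibroblast markers was 320 to 360.4 with DMSO and 283 to 308 with TIC10, and 0 of the 4 tested were called (limma). Of the endothelial markers 0 of 5 were bright enough to test, and the T-cell gene CD3E never passed percentile 14.4 of its array. Summed over 6 leukocyte markers, intensity was 644 to 720.3 with DMSO and 1036 to 1202 with TIC10. That rise came with CD68, a lysosomal protein of macrophages and other cells (log2 difference 1.80, limma adjusted p = 0.00373). CD68 read 8.49, 8.50 and 7.54 on DMSO replicates 1 to 3 after normalization. A dimmer CD68 probe had intensities of 216, 146 and 151 on DMSO and 180, 199 and 210 on TIC10 arrays, which overlap. The dimmest read 69.9, 62.3 and 48.7 against 97.8, 77.8 and 82.4, which do not. In the authors' processed values CD68 rose by 0.64 (limma adjusted p = 0.00608). PTPRC, the pan-leukocyte gene CD45, differed by 0.06 (adjusted p = 0.66). The part of other cells in the junction results was not tested.

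Most junction genes did not differ beyond the spread between arrays. Testing required an intensity over the 40th percentile on 3 or more arrays, and 16 of 18 probes and 9 of 10 genes met this, each gene being represented by its brightest probe. CLDN3 was lower and TJP1 higher in TIC10-treated cells, and the other 7 tested genes did not pass (limma, Benjamini-Hochberg adjusted p under 0.05 over 14534 genes). Among all genes tested 23.8% were called, 10.4% higher and 13.4% lower, so 2 called genes of 9 is a share near the background. The groups did not overlap in these 2 genes, where 41.6% of all genes tested had groups that did not overlap (18.5% higher, 23.1% lower). The median log2 difference, TIC10 minus DMSO, was 0.07 over the 9 genes and -0.01 over all genes.

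**Figure D1:**
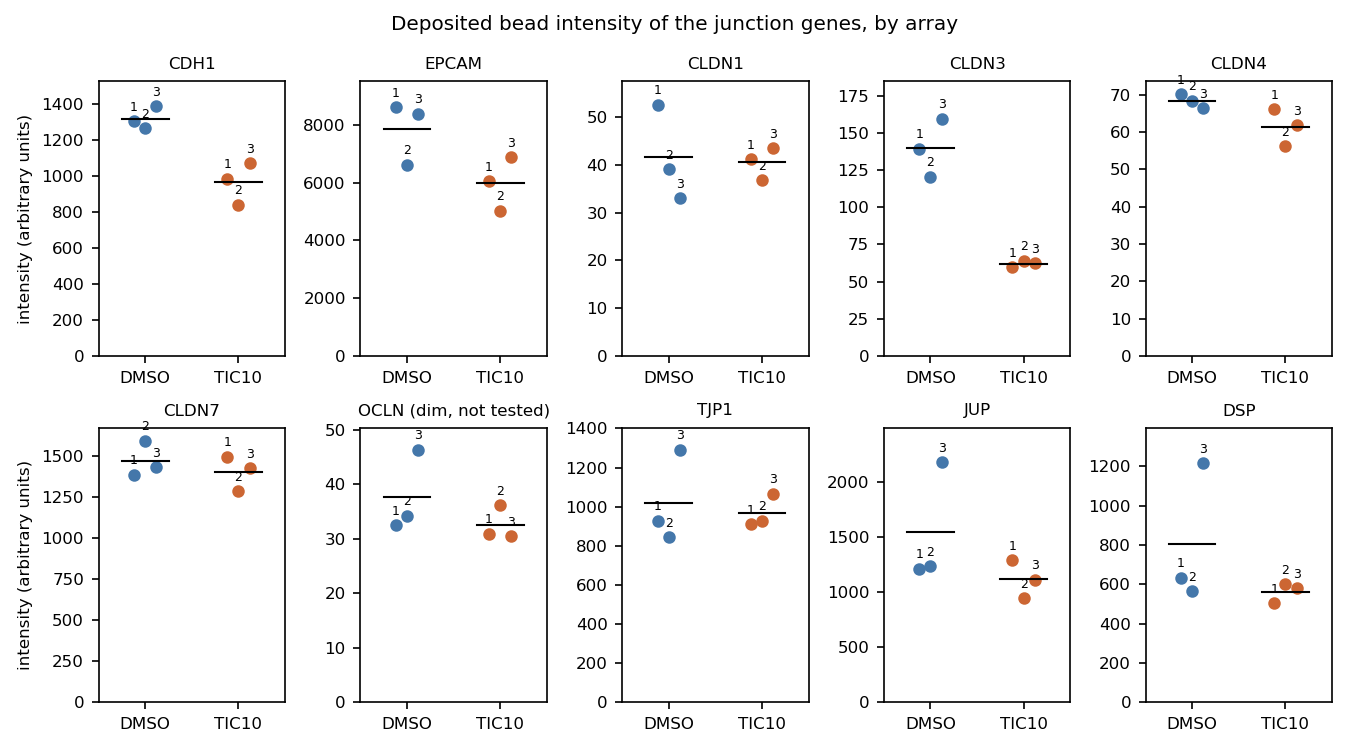
Deposited bead intensity (vertical axis, arbitrary units, from 0) of each junction gene on the 3 DMSO arrays (blue) and 3 TIC10 arrays (orange). Points carry the replicate number and lines are group means. CLDN3 reads 120.3 to 159 on DMSO and 59.5 to 63.9 on TIC10 arrays. CDH1 and CLDN4 are also lower on every TIC10 array at this stage, and DMSO replicate 3 stands high for JUP, DSP and TJP1. The median over all probes is lower on every TIC10 array too, and the share of all probes with groups apart here was not counted.

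**Figure D2:**
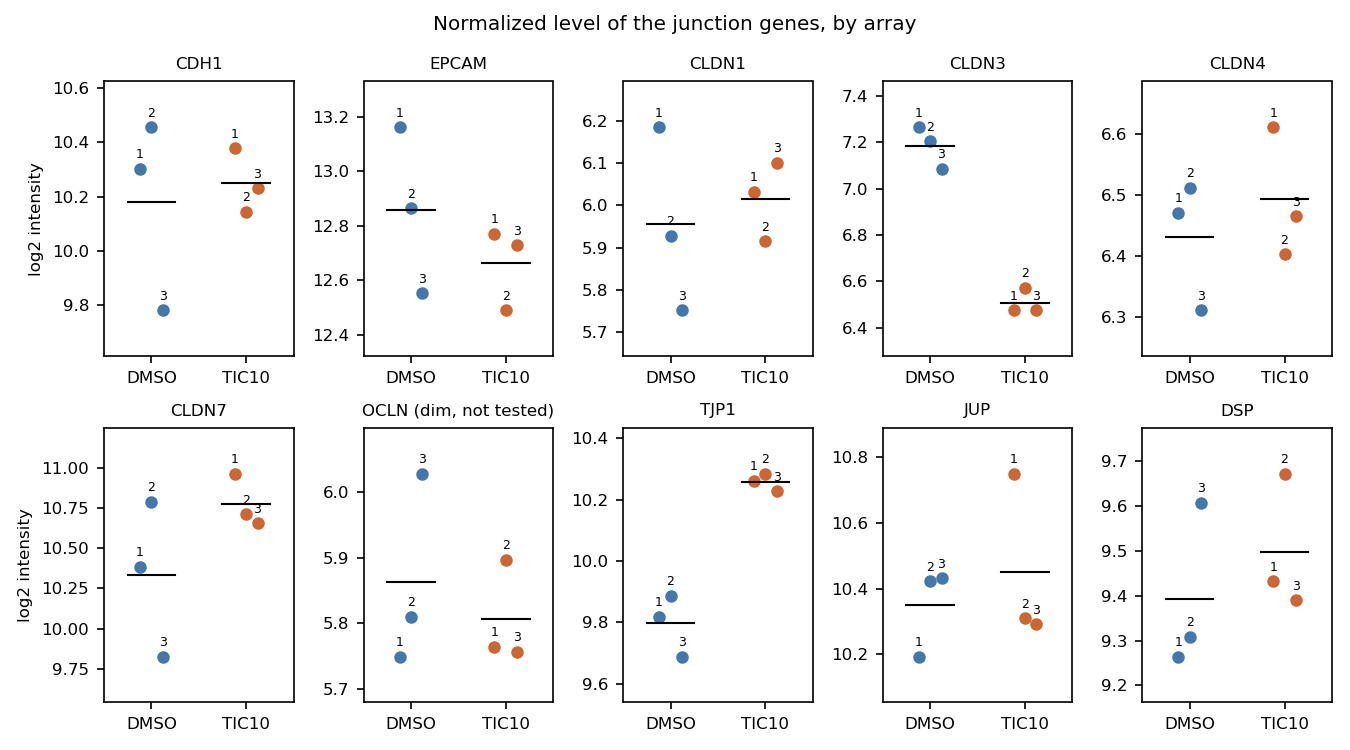
The same genes after background correction and quantile normalization (vertical axis, log2 intensity, not starting at 0 and scaled per gene). Points are arrays with their replicate number and lines are group means. The groups are apart for CLDN3 and TJP1 and overlap for CDH1, EPCAM, CLDN1, CLDN4, CLDN7, JUP, DSP and the dim OCLN.

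Claudins form the strands of the tight junction, and of the 4 measured here CLDN3 was called while CLDN1, CLDN4 and CLDN7 were not. Whether the claudins differed from one another was not tested. CLDN3, which encodes a sealing claudin of the gut, had deposited intensities of 139, 120.3 and 159 on DMSO replicates 1 to 3 and of 59.5, 63.9 and 62.3 on TIC10 replicates 1 to 3. After normalization these were 7.26, 7.20 and 7.08 against 6.48, 6.57 and 6.48 on the log2 scale, so that every TIC10 array was below every DMSO array. CLDN3 changed by -0.68 ± 0.08 (log2 difference ± SE, adjusted p = 0.00202), a level 1.60-fold higher in DMSO. It kept the call without any one array and in each other treatment of the bead intensities. In the series matrix, which holds the authors' own processed log values, CLDN3 differed by only -0.11 (95% interval -0.36 to 0.14, adjusted p = 0.708), and its groups overlapped there.

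CLDN4, a claudin that binds the same bacterial toxin as CLDN3, lies 60.7 kb from it on chromosome 7. Its probe was dim, with intensities of 70.1, 68.4 and 66.4 on DMSO and 66.1, 56.2 and 61.8 on TIC10 arrays. At this stage each TIC10 array was below each DMSO array, as was its median over all probes, and the share of all probes with groups apart was not counted. Normalized levels were 6.47, 6.51 and 6.31 against 6.61, 6.40 and 6.46, which overlap. CLDN4 differed by 0.06 with a 95% interval of -0.16 to 0.29 (limma adjusted p = 0.706). The log2 ratio of CLDN3 to CLDN4 within an array was 0.79, 0.69 and 0.77 on DMSO and -0.13, 0.17 and 0.01 on TIC10 replicates 1 to 3. The ratio was thus lower on every TIC10 array. On those arrays CLDN3 was about as dim as CLDN4, at percentiles 67.7 to 69.2 against 66.4 to 69.8. The pair was picked after both differences had been seen, so the ratio is a description with no test.

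The 250 bases before the start of each of these 2 genes are shown to set the neighbours side by side, from RefSeq, build GRCh38.p14, on the strand of the gene and 5′ to 3′. Capitals mark GC boxes, the letters GGGCGG or, on the other strand, CCGCCC, which are known to be bound by SP1. CLDN3 is on the minus strand at chr7:73770271-73770520 and CLDN4 on the plus strand at chr7:73830746-73830995.
CLDN3: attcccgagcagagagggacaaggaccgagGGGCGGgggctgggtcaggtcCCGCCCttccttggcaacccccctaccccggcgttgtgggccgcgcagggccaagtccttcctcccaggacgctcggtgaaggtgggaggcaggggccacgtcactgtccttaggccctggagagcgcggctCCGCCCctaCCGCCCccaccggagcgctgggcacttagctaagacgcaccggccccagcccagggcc
CLDN4: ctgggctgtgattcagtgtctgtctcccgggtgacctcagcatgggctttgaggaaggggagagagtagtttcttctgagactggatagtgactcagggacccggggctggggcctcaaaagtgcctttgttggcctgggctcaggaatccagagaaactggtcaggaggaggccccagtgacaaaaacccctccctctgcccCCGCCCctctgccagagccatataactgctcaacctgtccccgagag
There were 4 GC boxes in the CLDN3 window and 1 in the CLDN4 window, and 42.6% of the 35116 windows in the table held at least 1. An E-box CAGGTG or CACCTG, the letters bound by SNAI and ZEB repressors, was in neither window and in 17.5% of all windows. Of the 8 junction genes with a window in the table, 7 had a GC box and 3 had that E-box (OCLN, TJP1 and DSP). No window was available for CDH1 or EPCAM, so neither was searched for these letters. The letters TATAAA or, on the other strand, TTTATA were in 0 of the 8 and in 10.7% of all windows. The letters G and C made up 71.6% of the CLDN3 window and 58.8% of the CLDN4 window. Over the 8 genes this share ran from 58.8% to 78%, beside a median of 58% over all windows. A match describes the letters only.

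CLDN7, the claudin that binds EPCAM, was called in one deposited table and not in the other. Its intensities were 1387, 1595 and 1433 on DMSO and 1496, 1288 and 1426 on TIC10 arrays, which overlap. Quantile normalization gave 10.38, 10.79 and 9.82 against 10.96, 10.71 and 10.65, with DMSO replicate 3 far below the other DMSO arrays. CLDN7 differed by 0.44 ± 0.24 (95% interval -0.12 to 1.01, adjusted p = 0.24). Leaving out DMSO replicate 3 gave 0.19 for CLDN7, with an adjusted p = 0.36. In the series matrix CLDN7 read -0.73, -0.41 and -0.50 on DMSO and 0.35, 0.47 and 0.37 on TIC10 replicates 1 to 3. The groups did not overlap, which held for 23.8% of all genes in that table. There it was higher by 0.95 (95% interval 0.70 to 1.20, adjusted p = 0.000204), the single one of the 10 genes called in that table, where 6.7% of all genes were called, 3.68% higher and 3.02% lower.

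CLDN1, a claudin of tight junctions in skin and many other epithelia, passed the brightness filter on only 3 arrays. Its intensities were 52.5, 39.1 and 33 on DMSO and 41.2, 36.8 and 43.5 on TIC10 arrays, and its place in the array ranged from percentile 2.2 to 59.4. It differed by 0.06 with a 95% interval of -0.24 to 0.36 (limma adjusted p = 0.788), so no difference was detectable at this intensity. OCLN, the first membrane protein found in tight junctions, failed the filter with both of its probes. The brighter one read 32.6, 34.2 and 46.4 on DMSO and 30.9, 36.2 and 30.5 on TIC10 arrays. With all probes fitted it differed by -0.06 (95% interval -0.27 to 0.15), and the second OCLN probe by 0.00 (95% interval -0.19 to 0.18), both at the dim end of the scale.

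TJP1, which encodes the scaffold ZO-1 that links claudins and occludin to actin, was higher after TIC10 on the normalized scale. Its brightest probe had intensities of 929, 843 and 1290.3 on DMSO and 909.9, 928 and 1067 on TIC10 arrays, which overlap. Normalized levels were 9.82, 9.89 and 9.69 against 10.26, 10.28 and 10.23, which do not. The difference was 0.46 ± 0.08 (adjusted p = 0.00807), a level 1.38-fold higher with TIC10. A second probe, annotated to another RefSeq transcript of TJP1, read 472, 385 and 775 on DMSO and 527, 473 and 761 on TIC10 arrays and rose by 0.65 ± 0.12 (adjusted p = 0.0134 over 29440 probes, of which 18% were called and 35.2% had groups that did not overlap). The call held without any one array. Once every array was scaled to the same median, TJP1 differed by 0.01 (adjusted p = 0.977) and the median of all genes by -0.15. In the series matrix TJP1 differed by 0.36 (95% interval 0.12 to 0.61) with groups that did not overlap (adjusted p = 0.075), and the second probe by 0.35 (adjusted p = 0.329). There, 23.8% of all genes had groups that did not overlap.

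CDH1, which encodes E-cadherin, was bright on every array, above percentile 93.8, and was called in none of the settings tried. Its intensities were 1302, 1263 and 1386 on DMSO and 984, 838 and 1070.4 on TIC10 arrays, each TIC10 array below each DMSO array. The median over all probes was also lower on every TIC10 array. The share of all probes with groups apart in deposited intensities was not counted. After quantile normalization the levels were 10.30, 10.46 and 9.78 against 10.38, 10.15 and 10.23, and the groups overlapped. The difference was 0.07 ± 0.18, with a 95% interval of -0.36 to 0.50 (adjusted p = 0.831). Under median scaling CDH1 differed by -0.38 (adjusted p = 0.074), which was -0.23 relative to the median of all genes. In the series matrix it differed by 0.28 (95% interval 0.03 to 0.53, adjusted p = 0.188), with each TIC10 value above each DMSO value. Groups did not overlap in 23.8% of all genes in that table. The sign for CDH1 was positive in both tables as normalized. It turned under median scaling, with array weights (-0.11, adjusted p = 0.473) and on leaving out DMSO replicate 3 (-0.13, adjusted p = 0.386).

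EPCAM was measured by 3 probes, all above percentile 96.5 of every array. The brightest read 8611, 6624 and 8392 on DMSO and 6051, 5035 and 6874 on TIC10 arrays, or 13.16, 12.86 and 12.55 against 12.77, 12.49 and 12.73 after normalization. It differed by -0.20 ± 0.17 (95% interval -0.59 to 0.20, adjusted p = 0.466). The other probes of EPCAM differed by -0.03 (adjusted p = 0.924) and 0.47 (95% interval -0.02 to 0.96, adjusted p = 0.186), so that its probes pointed in different directions without passing. In the series matrix the 3 probes of EPCAM gave -0.09, -0.01 and -0.02. Leaving out DMSO replicate 3 put EPCAM at -0.38 and at the threshold itself, with limma adjusted p = 0.0504. With the brightness filter recomputed on the other 5 arrays, a choice made after seeing the data, that became adjusted p = 0.0486 and EPCAM counted as lower.

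**Figure D3:**
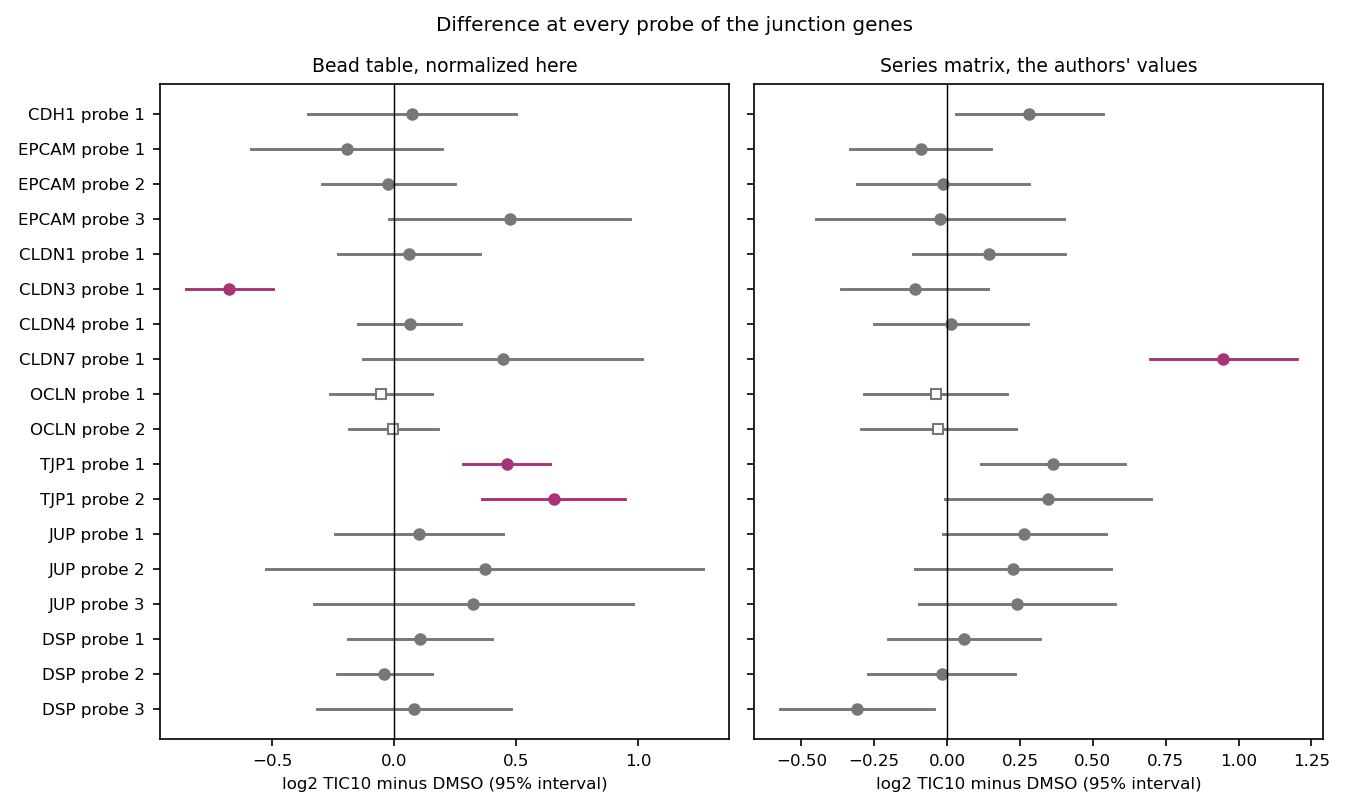
Log2 difference, TIC10 minus DMSO (horizontal axis), with its 95% interval at every probe of the junction genes, in the bead table after normalization (left) and in the authors' series matrix (right). Purple marks an adjusted p under 0.05 and open squares the OCLN probes that failed the brightness filter. CLDN3 and both TJP1 probes are called on the left, and CLDN7 alone on the right.

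JUP and DSP, the plaque proteins of the desmosome, each had 3 kept probes. Within each gene, the intensity of DMSO replicate 3 stood high at the brightest probe and low at a dimmer probe. JUP encodes plakoglobin, which serves both desmosomes and adherens junctions, and its brightest probe read 1212, 1232 and 2178 on DMSO and 1288, 946 and 1112 on TIC10 arrays. The 2 dimmer JUP probes read 188, 173 and 70.8, and 138, 139.6 and 69.4, on DMSO replicates 1 to 3. So the array that was highest at the bright JUP probe was lowest at the dim ones, by 1.31 and 0.98 on the normalized log2 scale below the mean of the other DMSO arrays. JUP differed by 0.10 ± 0.15 (95% interval -0.25 to 0.45, adjusted p = 0.691), and its dimmer probes by 0.37 (adjusted p = 0.606) and 0.32 (adjusted p = 0.523).

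DSP encodes desmoplakin, which fastens keratin filaments to the plaque. Its brightest probe read 634, 565 and 1216 on DMSO and 505, 601 and 581 on TIC10 arrays, with DMSO replicate 3 above all others. After normalization the levels were 9.26, 9.31 and 9.61 against 9.43, 9.67 and 9.39, and DSP differed by 0.10 ± 0.13 (95% interval -0.20 to 0.40, adjusted p = 0.62). The probe of DSP annotated to another transcript was dim, with DMSO replicate 3 below all others. It read 59.8, 53.2 and 32.1 on DMSO and 45.6, 41.7 and 53.8 on TIC10 arrays. That probe differed by 0.08 (limma adjusted p = 0.822) and the remaining DSP probe by -0.04 (adjusted p = 0.814). In the series matrix DSP differed by 0.06 (adjusted p = 0.884), and the remaining probe by -0.02. The probe for the other transcript had the opposite sign there, at -0.31 (95% interval -0.57 to -0.04, adjusted p = 0.209). Its groups did not overlap, where 23.8% of all genes had groups apart in that table. The spread between DMSO arrays exceeded that between TIC10 arrays in 7 of the 9 tested junction genes, where this held for 64.4% of all genes tested.

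**Figure D4:**
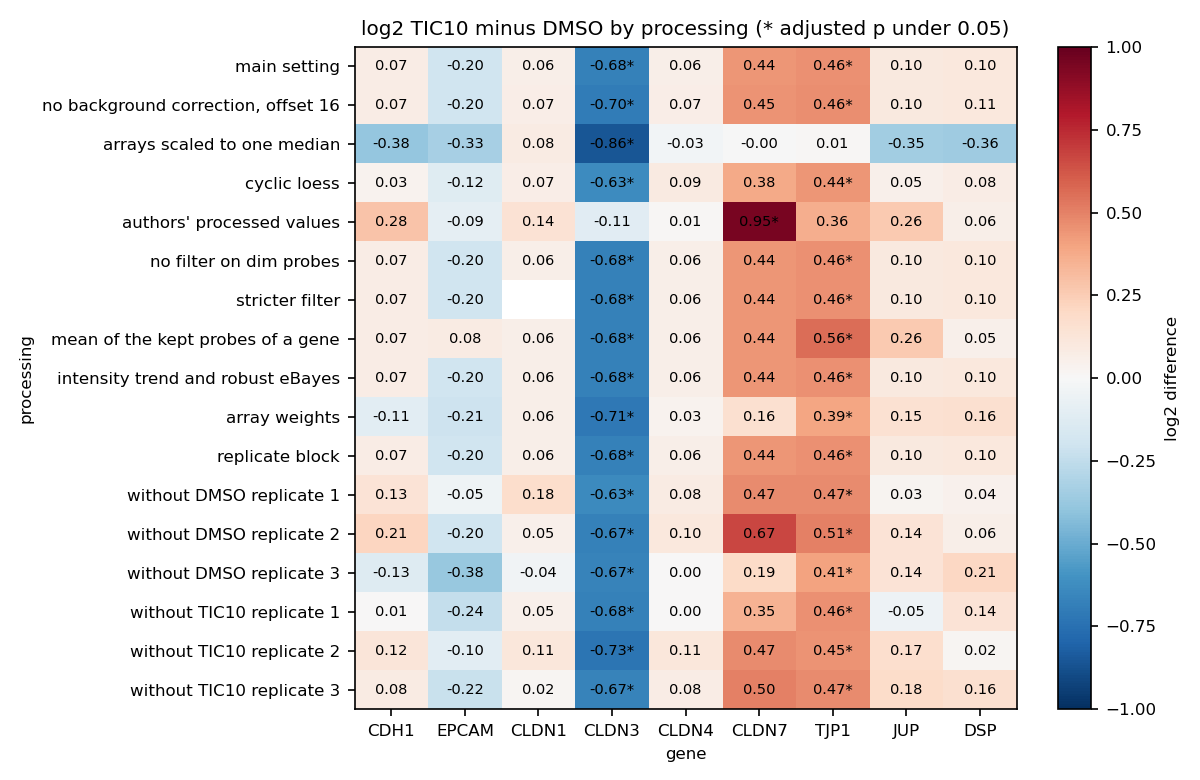
Log2 difference, TIC10 minus DMSO, of each tested junction gene (columns) under each processing (rows), with a star for an adjusted p under 0.05. Red is higher and blue lower with TIC10, and the blank cell marks CLDN1, which failed the stricter filter. CLDN3 is called lower in every row but that of the authors' values, and TJP1 is called higher in all but that row and the one with arrays scaled to one median.

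Beyond these 10 genes, 118 other genes of cell junctions and epithelial identity were listed by role, of which 80 were bright enough to test. Of the 80, 10 were higher, 10 lower and 60 did not pass, with a median log2 difference of 0.00, against 10.4% higher and 13.4% lower among all genes. In the series matrix 5 were higher and 1 lower, where 3.68% of all genes were higher and 3.02% lower. Median scaling gave 3 higher and 18 lower, with 86.3% of calls over all genes lower against 56.3% in the main setting.

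In the adherens junction list, 1 of 12 genes was higher and 2 lower (median 0.06). NECTIN3, a nectin that starts cell contacts, read 9.89, 9.71 and 11.05 on DMSO and 8.93, 8.99 and 9.03 on TIC10 arrays. It changed by -1.23 ± 0.33 (limma adjusted p = 0.0381), and the call was lost on leaving out DMSO replicate 1 or any single TIC10 array, with the mean of its probes and without the filter. Leaving out DMSO replicate 3 gave -0.80 (adjusted p = 0.000264), and in the series matrix NECTIN3 fell by 0.76 (adjusted p = 0.00104). A further NECTIN3 probe gave -1.08 (adjusted p = 0.111). CTNNB1, which encodes beta-catenin, the partner of CDH1 and effector of Wnt signalling, changed by -0.57 ± 0.11 (adjusted p = 0.0119). Of its 4 further kept probes 1 was also lower (-0.51, adjusted p = 0.0463), and the others gave 0.15, 0.08 and -0.04. CTNNB1 was not called with the mean of its probes (-0.18, adjusted p = 0.165) or in the series matrix (-0.16, adjusted p = 0.586). LIMA1, an actin-binding protein of the junction, rose by 1.00 ± 0.09 (adjusted p = 0.000716) but, like NECTIN3, did not pass under median scaling. LIMA1 was at 0.35 in the series matrix with overlapping groups (adjusted p = 0.207). Of the catenins that bind CDH1, CTNNA1 differed by 0.00 and CTNND1 by 0.01, although CTNNA1 passed in the series matrix at 0.43 (adjusted p = 0.0323); both were picked after their values were seen.

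Among tight junction membrane proteins 1 of 15 was higher and 2 lower (median -0.02), and among their scaffolds 1 of 12 was higher and 1 lower (median 0.10). CLDN15, a claudin that forms cation pores in the gut, rose by 0.97 ± 0.17 (adjusted p = 0.00826). CLDN23 changed by -0.75 ± 0.15 (adjusted p = 0.0117; not called without TIC10 replicate 1 or TIC10 replicate 3) and MARVELD3, a relative of occludin, by -0.38 ± 0.08 (adjusted p = 0.0173), while 2 further probes of MARVELD3 gave 0.25 and 0.06 and the mean of its probes -0.02 (adjusted p = 0.916). MARVELD3 was not called without DMSO replicate 1 or 2 or without TIC10 replicate 1 or 2. CGNL1, a cingulin relative at the junction, changed by -0.84 ± 0.13 (adjusted p = 0.00479). On TIC10 arrays CGNL1 lay between percentiles 34.2 and 43.1, with 1 of 3 over the filter, so it was tested through its DMSO arrays and its TIC10 level is at the dim end of the scale. PATJ, a scaffold of the Crumbs polarity complex, changed by 0.66 ± 0.09 (adjusted p = 0.00249), with a further PATJ probe at 0.04. None of these 5 genes passed in the series matrix (limma adjusted p from 0.154 to 0.946), and CLDN23 was at 0.03 there. PATJ was not called under median scaling.

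Of 10 other desmosome genes 2 were higher and 1 lower (median -0.04). PPL, the plakin periplakin, rose by 0.47 ± 0.10 (adjusted p = 0.0173) and passed in the series matrix at 0.44 (adjusted p = 0.0289). PKP2, a plakophilin, rose by 0.37 ± 0.08 (adjusted p = 0.0148), and the desmocollin DSC2 changed by -0.38 ± 0.07 (adjusted p = 0.0114), neither of them called in the series matrix (-0.06, adjusted p = 0.853, for PKP2 and -0.12, adjusted p = 0.659, for DSC2). A further DSC2 probe gave -0.20 (adjusted p = 0.651), and the mean of its probes -0.29 (adjusted p = 0.122). PPL and PKP2 were not called without DMSO replicate 1 or TIC10 replicate 1 or 3, nor DSC2 without TIC10 replicate 1. In the gap junction list 1 of 6 genes was higher (median -0.01), the connexin GJB2, by 0.74 ± 0.09 (adjusted p = 0.00185). GJB2 was at 0.36 in the series matrix and not called (adjusted p = 0.0959). Of 9 partners and proteases of EPCAM, ADAM17, a protease that sheds surface proteins including EPCAM, rose by 0.69 ± 0.11 (adjusted p = 0.00469), and by 0.67 in the series matrix (adjusted p = 0.00702). Further ADAM17 probes gave 0.40 (adjusted p = 0.00908) and 0.12 (adjusted p = 0.322). The tetraspanin CD9 changed by -0.53 ± 0.10 (adjusted p = 0.0101), but by -0.17 in the series matrix (adjusted p = 0.476). A further CD9 probe gave -0.02 (adjusted p = 0.941), and the mean of its probes -0.27 (adjusted p = 0.0585). The median of the EPCAM partners was -0.18, with 1 higher and 1 lower. PPL, PKP2, GJB2, ADAM17 and CD9 were not called under median scaling.

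Among 12 factors that set epithelial identity 2 were higher, 2 lower and 8 did not pass (median -0.06), beside 10.4% higher and 13.4% lower among all genes. ESRP1, an epithelial splicing regulator, averaged 7.73 ± 0.37 on DMSO and 8.81 ± 0.18 on TIC10 arrays (SD, n = 3 each), with no overlap. ESRP1 rose by 1.08 ± 0.19 (adjusted p = 0.00863), kept its call in every setting tried, and rose in the series matrix by 0.70 (adjusted p = 0.00164). OVOL2, a repressor of mesenchymal genes, read 7.55, 7.53 and 7.43 on DMSO and 6.11, 6.35 and 6.35 on TIC10 arrays, a change of -1.23 ± 0.10 (adjusted p = 0.000454) that was -0.30 in the series matrix (adjusted p = 0.133). KLF5, a factor of proliferating gut epithelium, rose by 0.93 ± 0.22 (adjusted p = 0.0232; not called without DMSO replicate 1 or 2 or TIC10 replicate 1, nor under median scaling). KLF5 was at 0.33 in the series matrix with overlapping groups (adjusted p = 0.542). ELF3, an epithelial ETS factor, changed by -0.76 ± 0.09 (adjusted p = 0.00212) and was at 0.02 in the series matrix.

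Repressors of CDH1 and mesenchymal genes were mostly too dim to measure, with 4 of 14 tested. SNAI2, which encodes the repressor SLUG, averaged 6.08 ± 0.23 on DMSO and 6.85 ± 0.13 on TIC10 arrays (SD, n = 3 each) and rose by 0.77 ± 0.14 (limma adjusted p = 0.00793). On DMSO arrays SNAI2 lay between percentiles 6.87 and 62.7, with 2 of 3 over the filter. A further SNAI2 probe gave 0.30 (adjusted p = 0.0763), and the series matrix 0.07 (adjusted p = 0.837). VIM, the mesenchymal filament protein vimentin, changed by -0.48 ± 0.09 (adjusted p = 0.0124; not called without TIC10 replicate 1), with a second probe at -0.45, but by 0.10 in the series matrix (adjusted p = 0.783). ZEB2 differed by 0.06 (adjusted p = 0.672) and FN1, fibronectin, by 0.05 (adjusted p = 0.67), both dim. SNAI1, ZEB1, TWIST1 and CDH2, the mesenchymal N-cadherin, failed the filter and never read above 52, 41.2, 44.8 and 40.7 units.

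**Figure D5:**
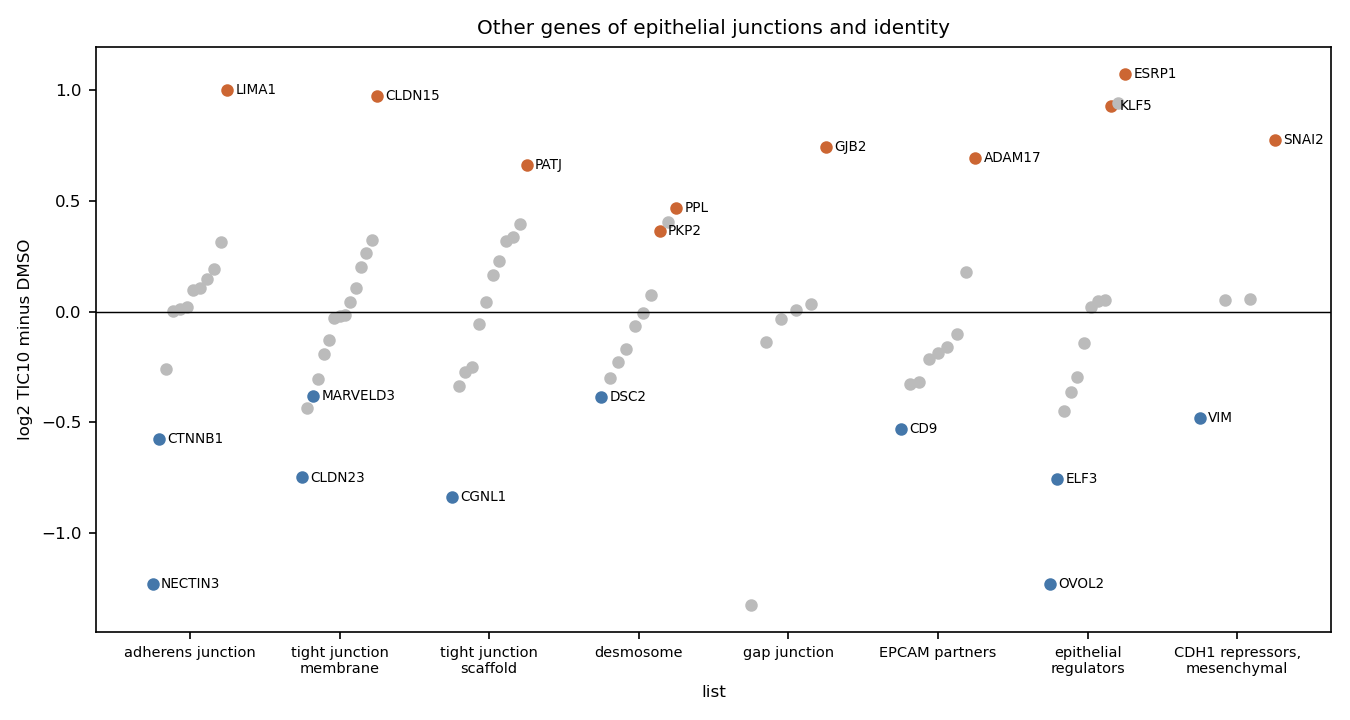
Log2 difference, TIC10 minus DMSO (vertical axis), of the 80 other tested genes of junctions and epithelial identity by list (horizontal axis). Each point is a gene, orange called higher, blue called lower and grey not called. The called genes spread to both sides of 0, from OVOL2 at -1.23 to ESRP1 at 1.08.

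The series matrix could not be matched to the bead table array by array. Within groups, the deviations of same-numbered columns from their group mean correlated by -0.48 to 0.11 over 29440 probes. Differently numbered columns correlated by -0.47 to 0.43, the highest being bead TIC10 replicate 3 with matrix TIC10 replicate 2. It was thus not settled that columns of one number hold the same array. Between groups, the log2 differences in the tables had a correlation of 0.61 across 14534 genes, which are not independent replicates, and 35.8% of genes differed in sign. All 9 tested junction genes had the same sign in both tables. The bead table names its columns only by Control or TIC10 and a number, and the series lists only 6 samples. The series matrix was therefore not taken as independent evidence.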

How the data were processed

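Total RNA from 6 samples was hybridized as biotinylated cRNA to Illumina arrays, per the labels' protocols. The deposited bead table holds intensity values that the authors' file describes as not normalized. It has no detection p-values, and no source states whether background was subtracted. The Control columns were assigned to the DMSO replicates of the same number. The deposited series matrix holds log values that the authors processed and centred per probe, taken as log2 values. Base, scaling and reference of the centring are unknown, and its column medians were -0.06, 0.00 and 0.07 for DMSO and 0.03, -0.10 and 0.03 for TIC10 replicates 1 to 3.

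Background correction in limma 3.58.1 under R 4.3.3 (normexp, saddle-point, offset 50) was followed by quantile normalization and log2. Of 47319 probes 29440 lay above percentile 40 of their array on at least 3 arrays. Symbols came from the array annotation (30112 probes with 1 symbol, 8 with several, 17199 with none), updated through Entrez numbers to GRCh38.p14 (30073 matched), and each of 14534 genes was its brightest kept probe. TIC10 and DMSO were compared with lmFit and eBayes, two-sided, adjusted over all genes, or over all kept probes for further probes. OCLN and other dim probes were fitted without the filter. The number of arrays limits the precision.

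The junction genes and the other lists were chosen with earlier results of these data known. From each list of other genes the up to 4 called genes with the largest change were named, and where a list had no call its 2 genes of lowest p, besides a panel of CDH1 repressors and mesenchymal genes. GC boxes, E-boxes and the claudin pair were chosen after the values were seen. List members without a usable symbol were not analysed here. The fit was also run on simulated data with known changes. These were drawn as normal noise, independent for each gene, with equal spread in both groups and no effects of whole arrays. That run therefore cannot speak to DMSO replicate 3 or to the choice of normalization. Replicate numbers are shared by the groups, but the deviations of same-numbered arrays correlated by -0.08, 0.13 and 0.00, so they were not treated as pairs. Alternatives were no background correction (offset 16), arrays scaled to one median, cyclic loess, the authors' values, no filter, a filter at percentile 60 on all 6 arrays, averaging over the probes of a gene, robust eBayes with an intensity trend, array weights, a replicate block and leaving out each array with the filter kept. Leaving out each array with the filter recomputed was added after the data were seen.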

Additional observations from a re-analysis of the deposited data

How the results depend on the processing

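Among the junction genes, 1 was called higher and 1 lower in each of the 16 alternatives with the filter as stated except 2. Scaling arrays to one median left 0 higher, the loss of TJP1, and with the authors' processed values 0 were lower and 1 higher, CLDN7 in place of TJP1. Across the alternatives CLDN3 ran from -0.86 to -0.11 and TJP1 from 0.01 to 0.56 on the log2 scale. The cause was not tested. Under that scaling 318 of all genes were higher and 2009 lower, and 86.3% of calls were lower against 56.3% in the main setting; 3 other junction genes were higher and 18 lower. With the authors' values 535 of all genes were higher and 439 lower, and 5 and 1 of the other junction genes; CLDN23 (0.031), ELF3 (0.019) and VIM (0.10) turned from lower to above 0 and PKP2 (-0.062) from higher to below 0, none of them called there. With the mean of a gene's probes 5 of the other junction genes were lower. With array weights 2775 of all genes were higher and 3238 lower, and 25 of the other junction genes lower. Leaving out each array in turn gave 891 to 2352 higher and 1181 to 2766 lower over all genes, and 7 to 12 higher and 6 to 22 lower among the other junction genes; the upper ends came without DMSO replicate 3 and the lowest counts over all genes without TIC10 replicate 1, with 936 and 1216 without TIC10 replicate 3. With the filter recomputed on the remaining arrays, an alternative chosen after seeing the data, the ranges were 881 to 2350 and 1178 to 2733 over all genes, 7 to 12 and 6 to 22 among the other junction genes, and 1 to 1 higher and 1 to 2 lower among the junction genes. Without TIC10 replicate 3 that gave 929 higher and 1218 lower. The second lower junction gene was EPCAM without DMSO replicate 3 (-0.38, adjusted p = 0.0486), which with the filter kept from all arrays stood at 0.0504. Of the 22 named genes that were called, 22 kept their call without DMSO replicate 3 and 14 without TIC10 replicate 1. With replicate number as a block, a paired fit, 1265 genes were higher and 1611 lower; the junction counts stayed at 1 and 1, CLDN3 had an adjusted p = 0.0124 and TJP1 0.0265, and MARVELD3 and PPL lost their calls. Of 490 single-gene values under those 16, 429 kept direction and side of the threshold or were uncalled on both sides, 10 of these with a change of sign. The dim probes of CLDN1, OCLN, SNAI1 and ZEB1 limit what could be seen for those genes.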
